A study of Mus musculus with 6 samples.

Results

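Transcripts of 9 enzymes that attach acetyl, lactyl or other acyl groups to lysine were measured in mouse liver, in exercise and in sedentary animals. The genes were taken by symbol from the deposited expression table, where all 9 were found among 16123 listed genes. They are Ep300 and Crebbp, the GCN5 family members Kat2a and Kat2b, the MYST family members Kat5, Kat7 and Kat8, and the alanyl-tRNA synthetase genes Aars and Aars2. The exercise group was 3 healthy adult mice that ran on a treadmill, 22 km each over 6 weeks, with the liver taken 24 h after the last training, and the sedentary group was 3 mice that did not train. Strain and sex are not stated by the labels, and animals were perfused with saline through the heart before the tissue was frozen. The wider study asked how moderate exercise changes liver metabolism and protein lactylation, and protein and lactylation data were not analysed here.

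Lysine acetyltransferases move an acetyl group from acetyl-CoA to lysine side chains of histones and other proteins, mostly as the catalytic part of large complexes. Several of them accept other acyl-CoAs, and EP300 and some relatives have been reported to transfer lactyl groups, a modification whose supply is tied to lactate. The alanyl-tRNA synthetases charge transfer RNA with alanine, in the cytosol (Aars) and in mitochondria (Aars2), and have been reported in mammalian cells to use lactate and ATP directly to lactylate lysine. In liver, EP300 and CREBBP are coactivators of the fasting and glucagon response, and GCN5 acetylates the coactivator PGC-1alpha and so restrains glucose production.

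Libraries held 17941303 to 18371949 counts, and members had between 176 and 5338 reads per library, none of them fractional. Genes with a mean FPKM (fragments per kilobase of a transcript and per unit of library size) of at least 1 were tested, 10266 in all, and all 9 members were among them. FPKM carries no TMM scaling, the edgeR correction for library composition, whose factors were 1.03 in exercise and 0.972 to 0.977 in sedentary libraries, so ratios of FPKM lie above the fitted fold changes. Spread within a group was small, with a common biological coefficient of variation of 1.84%. The labels name 3 mice a group but do not tie each library to 1 mouse, so the p-values below measure only the spread between libraries, which may be technical. Hepatocyte markers were abundant, with albumin (Alb) at a mean of 46012 FPKM in exercise and 46244 FPKM in sedentary livers, and all 10 of them passed the edgeR test used below, 4 higher and 6 lower. Markers of some other cells moved too, where 38.1% of all tested genes passed that test. Of 10 Kupffer cell and macrophage markers 8 fell, with a summed level of 234 to 238 FPKM in exercise and 278 to 283 FPKM in sedentary libraries. Of 9 tested stellate cell and fibroblast markers 6 rose and 1 fell. Summed over 10, they stood at 129 to 130 FPKM in exercise and 102 to 105 FPKM in sedentary libraries. Endothelial markers passed at 30%, below the share of all genes, with 3 of 10 higher. Their sum was 126 to 134 FPKM in exercise and 114 to 115 FPKM in sedentary libraries. Of 2 tested neutrophil markers and 1 tested lymphocyte marker 0 passed. Of 5 tested erythroid markers 4 fell. The cholangiocyte marker Spp1 fell, with a mean of 30.5 FPKM in exercise and 60.7 FPKM in sedentary libraries. Sox9, the other cholangiocyte marker tested, did not pass (edgeR adjusted p = 0.0571). The pancreatic acinar marker Amy2a5 had no count in exercise and a mean of 56.7 counts in sedentary libraries, and Cela1 fell too. Only these 2 of 10 listed acinar markers were tested, and the rest had at most 17 counts in any library. Whether the mix of cells contributes to the values below was not tested, and in whole tissue a lower share of a cell type and less RNA per cell cannot be told apart.

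Exercise livers had higher Kat8, Crebbp, Ep300 and Kat2b transcripts and lower Kat5 transcripts than sedentary livers, while Kat2a, Kat7, Aars and Aars2 did not pass the test. Kat8 moved most, being 25.0% higher, and Kat5 was 16.4% lower. Passing here means an adjusted p under 0.05 in edgeR's quasi-likelihood test, adjusted by Benjamini-Hochberg over all tested genes. By that rule 4 of 9 members rose and 1 fell, where 19.1% of all tested genes rose, 19.0% fell and 38.1% changed in either direction. The members' 55.6% is 5 of 9 genes and is given as a description only. Other call rules gave other counts. DESeq2 called 1 member higher and 0 lower, where it called 12.4% of all tested genes higher, 12.1% lower and 24.5% in either direction. With limma on log2(FPKM + 1) 4 members rose, with Kat7 in (adjusted p = 0.0412) and Ep300 out (0.0545), and 1 fell, beside 27.9% and 10.7% of all genes, 38.6% together. Against a minimum change of 1.2-fold edgeR called no member, beside 2.33% of all genes higher and 4.03% lower (6.36% together). The median log2 fold change was 0.08 over the members and −0.00062 over all tested genes.

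**Figure D1:**
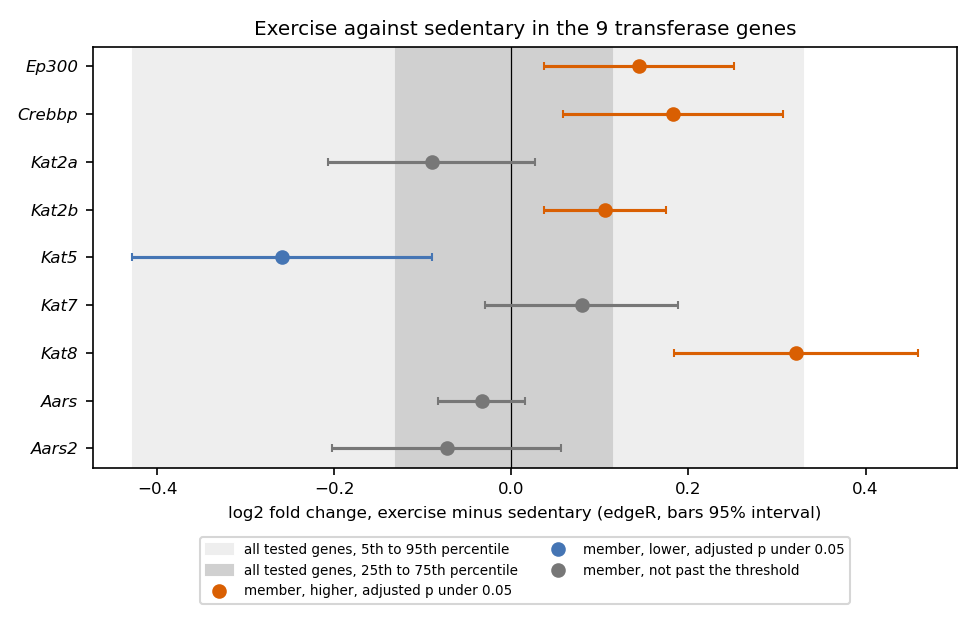
Log2 fold change of each gene, exercise minus sedentary, by edgeR on TMM-scaled counts (x axis), with 95% intervals as bars and 1 gene per row. Grey bands show where the middle 50% and 90% of all tested genes lie. Kat8 at 0.32 and Kat5 at −0.26 are farthest from 0, and the interval of Kat8 lies above the inner band's edge of 0.11.

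The 2 genes that moved most in opposite directions, and the synthetase gene with the highest level, are shown with their promoter windows, which run from 250 bases before to 50 bases after an annotated start (RefSeq, GRCm38.p6, written 5′ to 3′ on the gene's own strand). Capitals mark matches to any of 6 motifs searched on both strands, which were the ATF4 and C/EBP composite element TGATGNAA, the E-box CACGTG, the cAMP response element TGACGTCA, the ETS element CCGGAAG, the SP/KLF GC box GGGCGG and the CCAAT box. No motif contains another, and Kat2b, Kat5, Kat8 and Aars2 have 2 windows each, of which 1 is shown for Kat5 and Kat8.
Kat8 (chr7:127912267-127912566, plus strand): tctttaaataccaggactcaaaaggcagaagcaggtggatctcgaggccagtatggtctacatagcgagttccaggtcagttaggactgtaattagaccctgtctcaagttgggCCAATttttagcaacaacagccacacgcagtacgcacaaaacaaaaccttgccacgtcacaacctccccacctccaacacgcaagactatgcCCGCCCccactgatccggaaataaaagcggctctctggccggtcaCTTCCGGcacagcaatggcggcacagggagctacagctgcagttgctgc
Kat5 (chr19:5610045-5610344, minus strand): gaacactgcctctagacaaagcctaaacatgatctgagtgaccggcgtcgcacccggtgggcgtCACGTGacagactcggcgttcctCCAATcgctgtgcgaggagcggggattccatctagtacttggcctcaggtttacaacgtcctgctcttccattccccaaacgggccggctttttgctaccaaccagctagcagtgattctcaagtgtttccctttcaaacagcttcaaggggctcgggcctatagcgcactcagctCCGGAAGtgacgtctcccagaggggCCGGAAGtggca
Aars (chr8:111033592-111033891, plus strand): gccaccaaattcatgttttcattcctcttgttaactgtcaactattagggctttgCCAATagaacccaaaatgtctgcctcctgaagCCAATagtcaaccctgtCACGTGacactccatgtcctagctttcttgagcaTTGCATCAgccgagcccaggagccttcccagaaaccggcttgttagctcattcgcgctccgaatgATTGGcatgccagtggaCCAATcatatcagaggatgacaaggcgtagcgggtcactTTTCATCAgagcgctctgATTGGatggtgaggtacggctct
The ETS element stood in the Kat8 window, on the opposite strand (CTTCCGG) and just after the start, and 2 times after the start in the Kat5 window. It was found in 3 of the 13 windows of the 9 members (1 each of Kat5, Kat7 and Kat8) and in 8.86% of all 32851 promoter windows of the reference. Of the 13 windows, 1, that of Aars, held the ATF4 and C/EBP element, as TTGCATCA and as TTTCATCA on the opposite strand, where 3.97% of all windows held it. The E-box was in 2 of the 13 windows, 1 each of Kat5 and Aars (7.15% of all windows), the GC box in 5 (35.7%), the CCAAT box in 6 (37.4%) and the cAMP response element in 0 (1.79%). These are matches of letters and say nothing of which factor acted.

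Ep300 and Crebbp encode the paired coactivators p300 and CBP, which are close relatives in sequence. Ep300 (gene ID 328572, GRCm38.p6 chromosome 15, 81586209 to 81652077) had 3.79, 4.51 and 4.19 FPKM in the exercise libraries, against 3.49, 3.53 and 3.68 FPKM in the sedentary libraries. All exercise values lay above all sedentary values, with exercise replicate 1 close to the sedentary range. Its log2 fold change was 0.14 (SE 0.05, edgeR adjusted p = 0.0322). On TMM-scaled counts the groups overlapped, since exercise replicate 1 had 30.97 and sedentary replicate 3 had 31.97 TMM-scaled CPM (counts scaled to a common library size).

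Crebbp (gene ID 12914, chromosome 16, 4081334 to 4213957) had the lowest FPKM of the 9 genes, at 2.45, 2.44 and 2.23 FPKM in exercise livers and 2.01, 2.09 and 1.76 FPKM in sedentary livers. The groups did not overlap, also on TMM-scaled counts, and the log2 fold change was 0.18 (SE 0.06, edgeR adjusted p = 0.0191). The length that links the deposited count to the deposited FPKM varied more for Crebbp than for any other member, between 9023 bases in exercise replicate 2 and 10192 bases in sedentary replicate 3. That range was 12.0% of its mean, against 4.17% or less in the other 8 genes, so the order of Crebbp values differs between the scales. Exercise replicate 2, for example, had the lowest exercise count, 395, but a FPKM next to the highest.
The balance of the pair did not separate the groups. Counts of Ep300 over those of Crebbp stood at 1.29, 1.73 and 1.58 in exercise and 1.54, 1.45 and 1.73 in sedentary libraries, with the exercise values reaching below and into the sedentary range.
Calls of both genes depended on which libraries were kept, that of Ep300 more so. With 1 library left out at a time, Ep300 was called in 2 of 6 fits and Crebbp in 4 of 6. Crebbp was called in 12 of all 16 alternatives to the main fit. The Ep300 call ended without exercise replicate 2 (edgeR adjusted p = 0.299), exercise replicate 3 (0.0813), sedentary replicate 1 (0.0875) or sedentary replicate 2 (0.0844), and that of Crebbp without exercise replicate 1 (0.147) or sedentary replicate 3 (0.132). By DESeq2 neither passed (adjusted p = 0.152 for Ep300 and 0.122 for Crebbp). Ep300 also missed the threshold with no FPKM filter (edgeR adjusted p = 0.0527), and by limma after quantile normalization (0.0814), on log2(FPKM + 1) (0.0545) and on log2(FPKM + 0.1) (0.0542), and in all it was called in 6 of 16 alternatives.

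Kat2a and Kat2b encode GCN5 and PCAF, alternative catalytic subunits of the SAGA and ATAC coactivator complexes. Kat2b (gene ID 18519, chromosome 17, 53566774 to 53672721) had the highest FPKM of the 7 acetyltransferases among the 9 genes, with 22.55, 21.60 and 23.21 FPKM in exercise livers and 19.83, 19.79 and 19.78 FPKM in sedentary livers. The sedentary values were nearly equal and all lay below the exercise values. By TMM-scaled counts Kat2b was 1.08-fold higher (log2 fold change 0.11, SE 0.04, edgeR adjusted p = 0.0149).
Kat2a (gene ID 14534, chromosome 11, 100704746 to 100712485) had 7.64, 7.68 and 7.68 FPKM in exercise and 7.90, 7.45 and 7.93 FPKM in sedentary libraries. By FPKM the exercise values fell inside the sedentary range. On TMM-scaled counts they lay below it, at 20.6 to 20.9 against 21.2 to 22.6 TMM-scaled CPM. Such a separation downward was seen in 23.6% of all tested genes. The log2 fold change of Kat2a was −0.09 (95% interval −0.21 to 0.03, edgeR adjusted p = 0.239).
Because both genes are read in the same libraries, their ratio does not depend on how the libraries are scaled. There were 4.21, 4.01 and 4.28 Kat2b counts for each Kat2a count in exercise libraries and 3.61, 3.77 and 3.54 in sedentary libraries, with no overlap between the groups. The pair was set side by side with its values known, so the ratio is given without a test. The Kat2b call ended without exercise replicate 3 (edgeR adjusted p = 0.097) and by DESeq2 (adjusted p = 0.0794).

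**Figure D2:**
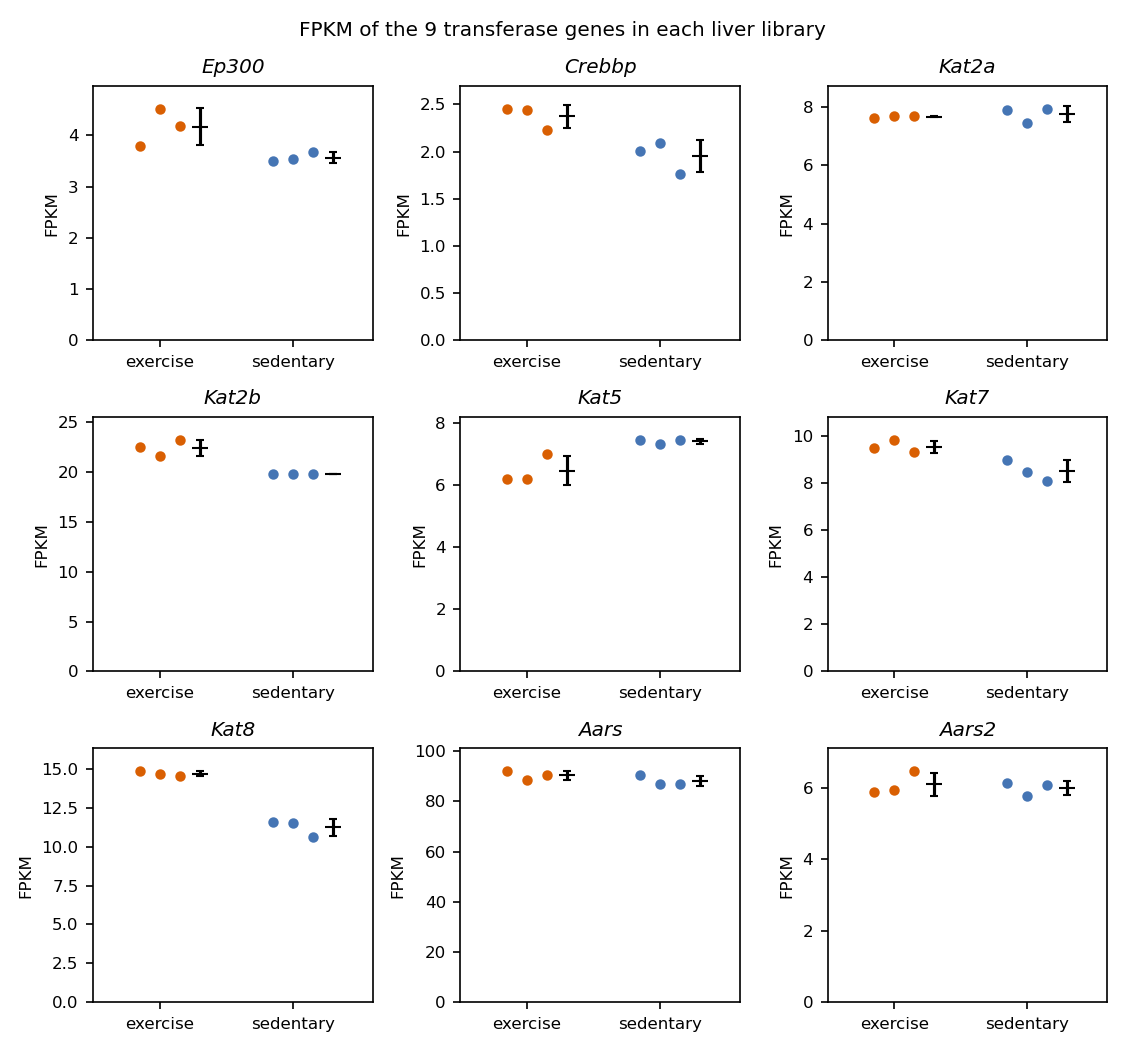
FPKM of each gene (y axis, from 0) in the 3 exercise and 3 sedentary libraries, 1 point per library, with the mean and SD as a black bar beside each group. Kat8, Kat2b, Crebbp, Ep300 and Kat7 have every exercise point above every sedentary point, Kat5 has every one below, and Kat2a, Aars and Aars2 overlap.

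Kat8 encodes MOF, the MYST enzyme that acetylates histone H4 as part of the MSL and NSL complexes. Kat8 (gene ID 67773, chromosome 7, 127912517 to 127925838) had 14.84, 14.66 and 14.52 FPKM in exercise livers, against 11.56, 11.54 and 10.62 FPKM in sedentary livers. Counts were 330, 327 and 327 in the exercise libraries and 260, 259 and 238 in the sedentary libraries. The exercise values were tightly grouped and stood clear of the sedentary ones, where replicate 3 was lowest. Kat8 rose by 25.0% (log2 fold change 0.32, SE 0.07, edgeR adjusted p = 0.000222), a change larger than that of 86.0% of all tested genes. It was the only member called by DESeq2 (adjusted p = 0.00658) and the only one called whichever library was left out (edgeR adjusted p = 0.000437 to 0.00369). Kat8 did not pass against a minimum change of 1.2-fold (edgeR adjusted p = 0.604).
Kat8 shares 122 exonic bases with Prss8, a protease gene on the opposite strand (GENCODE vM21), and whether reads were counted by strand is not stated, so reads of the pair cannot be told apart in those bases. Prss8 had 110, 116 and 102 counts in exercise and 122, 144 and 116 in sedentary libraries, the opposite direction to Kat8 (log2 fold change −0.28, edgeR adjusted p = 0.0478).

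Kat5 encodes TIP60, the catalytic subunit of the NuA4 complex, known for its part in DNA damage signalling and histone acetylation. Kat5 (gene ID 81601, chromosome 19, 5603014 to 5611556) had 6.20, 6.21 and 7.02 FPKM in exercise livers and 7.46, 7.33 and 7.46 FPKM in sedentary livers. Exercise replicate 3 stood nearer to the sedentary values than to the other exercise values, but the groups did not overlap. Kat5 had the fewest reads of the 9, with 176, 182 and 207 in exercise and 215, 214 and 221 in sedentary libraries. Its log2 fold change was −0.26 (SE 0.09, edgeR adjusted p = 0.0148), the widest standard error among the members. The call ended without exercise replicate 1 (edgeR adjusted p = 0.0896) or exercise replicate 2 (0.0537), without TMM (0.0814), by limma on log2(TPM + 1) (0.0589) and by DESeq2 (0.0999).
Rnaseh2c, a ribonuclease H2 subunit gene on the opposite strand, shares 426 exonic bases with Kat5, where the same limit holds. It had 540, 503 and 546 counts in exercise libraries and 500, 444 and 467 in sedentary libraries, so its values ran the other way, and it did not pass (log2 fold change 0.11, edgeR adjusted p = 0.099).
The ratio of Kat8 counts to Kat5 counts was 1.88, 1.80 and 1.58 in exercise livers and 1.21, 1.21 and 1.08 in sedentary livers. No exercise value reached down to the sedentary range, and, as a ratio of genes picked for their opposite changes, it is given without a test.

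Kat7 encodes HBO1, a MYST enzyme linked to the licensing of replication origins. Kat7 (gene ID 217127, chromosome 11, 95271853 to 95310246) had 9.47, 9.81 and 9.29 FPKM in exercise and 8.98, 8.46 and 8.07 FPKM in sedentary libraries. By FPKM the groups did not overlap. That was so for 5 members higher and 1 lower, and for 36.6% of all tested genes higher, 14.3% lower and 51.0% together. By TMM-scaled counts 3 members were higher without overlap (Crebbp, Kat2b and Kat8) and 2 lower (Kat2a and Kat5), beside 23.3%, 23.6% and 46.9% of all genes. For Kat7, sedentary replicate 1, at 27.7 TMM-scaled CPM, lay among the exercise values of 26.95 to 28.1. The log2 fold change was 0.08 (95% interval −0.03 to 0.19, edgeR adjusted p = 0.267). Kat7 did pass by limma on log2(FPKM + 1) (adjusted p = 0.0412), log2(FPKM + 0.1) (0.0408) and log2(TPM + 1) (0.016), and by edgeR without TMM (0.0181).

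The 7 acetyltransferase transcripts summed to 66.94, 66.91 and 68.14 FPKM in exercise livers and 61.23, 60.19 and 59.30 FPKM in sedentary livers. These sums carry no TMM scaling, and part of their difference is shared by genes at large. By limma on log2(FPKM + 0.1) the median log2 fold change of all tested genes was 0.071. Kat2b made up 32.3% to 34.1% of that sum in exercise and 32.4% to 33.4% in sedentary libraries. Kat8 made up 21.3% to 22.2% in exercise and 17.9% to 19.2% in sedentary libraries, so its share differed between the groups while that of Kat2b overlapped. Ordered by mean FPKM over all libraries the levels ran Kat2b, Kat8, Kat7, Kat2a, Kat5, Ep300 and Crebbp. In exercise livers neighbours in this order did not overlap, while in sedentary livers the values of Kat7, Kat2a and Kat5 lay between 7.33 and 8.98 FPKM and Kat5 overlapped with Kat2a.

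**Figure D3:**
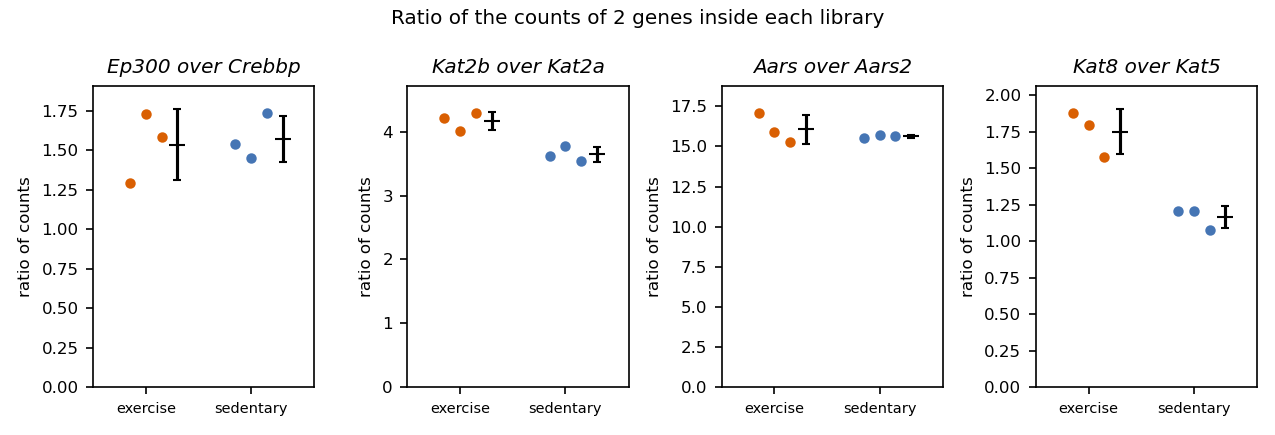
Counts of the first named gene divided by those of the second in the same library (y axis, from 0), 1 point per library, with mean and SD as a black bar. The ratios Kat8 over Kat5 and Kat2b over Kat2a are higher in all 3 exercise libraries, and Ep300 over Crebbp and Aars over Aars2 overlap between the groups.

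Aars (gene ID 234734, chromosome 8, 111027778 to 111055569), reported as a lactyltransferase besides its role in translation, was the most abundant member. It had 92.09, 88.57 and 90.54 FPKM in exercise livers and 90.35, 86.81 and 87.03 FPKM in sedentary livers. The ranges overlapped, and with 5027 or more reads per library the interval was narrow, with a log2 fold change of −0.03 (95% interval −0.08 to 0.02, edgeR adjusted p = 0.302). The sign of this value turned on the scaling, being 0.044 without TMM and 0.072 by limma on log2(TPM + 1), without passing in either. Aars shares 1326 exonic bases with Exosc6 on the same strand, which had 75 to 94 counts per library, so the split of reads in those bases is uncertain.
Aars2 (gene ID 224805, chromosome 17, 45503515 to 45520843) had 5.87, 5.93 and 6.46 FPKM in exercise and 6.13, 5.77 and 6.06 FPKM in sedentary libraries. The groups overlapped and the log2 fold change was −0.07 (95% interval −0.20 to 0.06, edgeR adjusted p = 0.407). There were 17.1, 15.9 and 15.3 Aars counts per Aars2 count in exercise and 15.5, 15.7 and 15.6 in sedentary libraries, with the exercise values on both sides of the sedentary range.

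Among the cytosolic synthetases Aars had the highest mean FPKM of 20 tested genes and ranked 13 of 20 by log2 fold change. Of the other 22 listed genes, which include 3 scaffold proteins of the synthetase complex, 9 rose and 3 fell. DESeq2 called 7 higher and 1 lower, and 10 rose and 0 fell without TMM and by limma on log2(TPM + 1) or log2(FPKM + 1). Iars and Yars, which charge isoleucine and tyrosine, rose by 0.20 each on the log2 scale (edgeR adjusted p = 8.43e-05 and 0.000757), Sars rose 1.11-fold (0.00139) and Farsa 1.22-fold (0.00142). Of 15 tested mitochondrial synthetases other than Aars2, 0 rose and 2 fell by edgeR (0 and 3 at an unadjusted p under 0.05, 0 and 2 by DESeq2), while limma called 2 higher and 1 lower on log2(TPM + 1) and 1 and 1 on log2(FPKM + 1). The fallers were Tars2 (log2 fold change −0.26, edgeR adjusted p = 0.000365) and Pars2 (−0.60, 0.00413). The share of genes called was 54.5% in the cytosolic and 13.3% in the mitochondrial list, beside 38.1% of all tested genes.

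Subunits of the acetyltransferase complexes were called at shares of 27.3% (MSL and NSL), 34.8% (SAGA and ATAC), 29.4% (NuA4) and 50% (the Kat7 complex, 4 of 8), beside 38.1% of all tested genes. Of 11 subunits of the Kat8 complexes MSL and NSL 3 rose and 0 fell by edgeR, against 7 and 0 at an unadjusted p under 0.05, 1 and 0 by DESeq2, and 8 and 0 without TMM. The 3 were Hcfc1 (1.11-fold, edgeR adjusted p = 0.00337), Kansl2 (1.13-fold, 0.0077) and Wdr5 (1.12-fold, 0.0113). Of 23 SAGA and ATAC subunits, the partners of Kat2a and Kat2b, 6 rose and 2 fell, against 4 and 0 by DESeq2 and 11 and 0 without TMM. They were led by the scaffold gene Trrap, which rose 1.19-fold (edgeR adjusted p = 3.29e-06), by the adaptor gene Tada2b at 1.21-fold (6.13e-05) and by Atxn7l3 and Atxn7 of the deubiquitinase module, higher by 0.20 (0.00115) and 0.22 (0.00199) on the log2 scale.
The 17 NuA4 subunits that work with Kat5 had 3 higher and 2 lower. Trrap, shared with SAGA, Morf4l2 (1.09-fold, edgeR adjusted p = 0.00611) and Epc1 (1.17-fold, 0.0198) rose, while Dmap1 (log2 fold change −0.30, 0.00931) and Yeats4 (−0.18, 0.0368) fell. None of the list was lower by DESeq2 (2 higher), by limma on log2(TPM + 1) (8 higher), without exercise replicate 2 or without sedentary replicate 3, and 7 were higher and 1 lower without TMM.
Of 8 tested subunits of the Kat7 complex 3 rose and 1 fell. The scaffold genes Jade1 and Brpf3 rose 1.26-fold and 1.27-fold (edgeR adjusted p = 7.41e-08 and 1.19e-07) and Brpf1 rose 1.21-fold (0.000477), while Jade2, which can take the place of Jade1, fell by 0.51 on the log2 scale (1.34e-06).
Jade1 averaged 8.48 FPKM in exercise and 6.36 FPKM in sedentary livers, and Jade2 averaged 1.86 FPKM in exercise and 2.52 FPKM in sedentary livers.

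Of 12 tested partners and regulators of EP300 and CREBBP 3 rose and 1 fell, which is 33.3% of the list beside 38.1% of all tested genes. Creb1, the factor that recruits them, rose by 0.32 on the log2 scale (edgeR adjusted p = 0.000629), its relative Crem rose 1.16-fold (0.0136), and Sik1, a kinase that holds CREB coactivators in the cytosol, fell by 0.32 on the log2 scale (0.000203). Atf4, the gene of a stress response factor, rose 1.31-fold (edgeR adjusted p = 1.45e-13). Its mean was 81.1 FPKM in exercise and 58.3 FPKM in sedentary livers.
Of 16 tested acetyltransferases outside the 9 genes 3 rose and 1 fell, which is 25% of the list beside the same 38.1%. Clock, a circadian factor with acetyltransferase activity, rose 1.27-fold (edgeR adjusted p = 7.48e-08), the tubulin acetyltransferase gene Atat1 rose 1.22-fold (0.000123), Naa50 rose by 0.14 on the log2 scale (0.00303), and Hat1, which acetylates newly made histones, fell by 0.33 on the log2 scale (0.0115).

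Of 17 tested zinc-dependent and sirtuin deacylases 1 rose and 2 fell, which is 17.6% of the list beside 38.1% of all tested genes. The balance turned with the scaling, to 4 higher and 1 lower without TMM, 6 and 1 by limma on log2(TPM + 1), and 5 and 1 by limma on log2(FPKM + 1). Sirt3, the main mitochondrial deacetylase, averaged 68.5 FPKM in exercise and 54.7 FPKM in sedentary livers (edgeR adjusted p = 6.56e-07), and Sirt5, which removes succinyl and malonyl groups, averaged 8.27 FPKM in exercise and 10.4 FPKM in sedentary livers (0.000155). Hdac5 fell by 0.12 on the log2 scale (edgeR adjusted p = 0.04), though its groups overlapped by FPKM and by TMM-scaled counts. DESeq2 called 1 gene of this list higher and 1 lower.
Genes for the supply of acyl-CoA and lactate had 5 of 11 tested members higher and 2 lower, or 63.6% beside 38.1% of all tested genes. This balance turned with the scaling too, to 8 higher and 1 lower without TMM. By limma it was 9 and 1, both on log2(TPM + 1) and on log2(FPKM + 1). Crat, which moves acetyl groups between CoA and carnitine, rose 1.49-fold (edgeR adjusted p = 2.23e-13), and Acss2, an acetyl-CoA synthetase also reported to make lactyl-CoA, rose 1.09-fold (0.000122). Pdha1, a pyruvate dehydrogenase subunit gene, rose 1.11-fold (edgeR adjusted p = 9.19e-05), and Ldha, which interconverts pyruvate and lactate, fell by 0.19 on the log2 scale (2e-10).

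**Figure D4:**
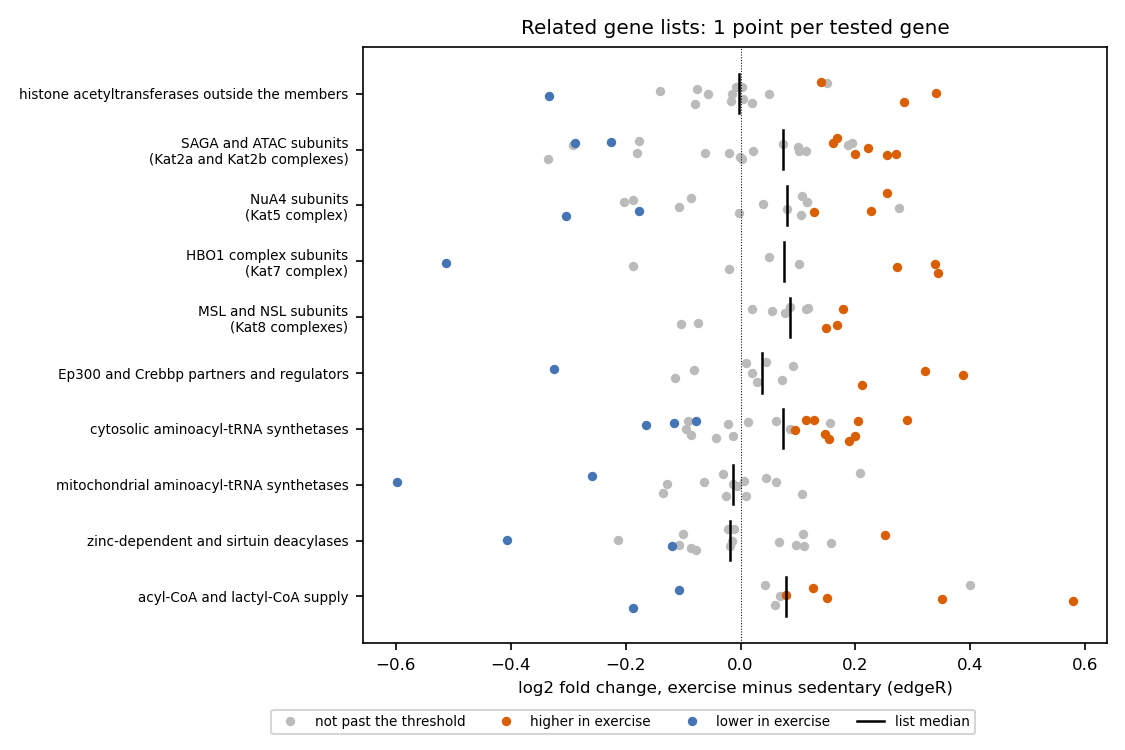
Log2 fold change, exercise minus sedentary, by edgeR (x axis) of every tested gene in 10 related lists, 1 point per gene, with the list median as a black line. Genes past the threshold are coloured by direction. List medians run from −0.02 (deacylases) to 0.09 (MSL and NSL subunits).

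Counted over these 10 lists, 34 of 149 distinct tested genes rose and 16 fell. Of all tested genes 19.1% rose and 19.0% fell, 38.1% together. The split moved with the scaling, as it did for all genes. Leaving out TMM raised the median log2 fold change of all tested genes to 0.077. Then 57 of the 149 list genes rose and 8 fell, beside 3537 and 1203 of all 10266 tested genes. The directions of Kat8, Crebbp, Ep300, Kat2b and Kat5 were the same in every setting in which each was tested (Ep300 and Crebbp were not tested at a mean FPKM of at least 5), as the grid of settings shows.

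**Figure D5:**
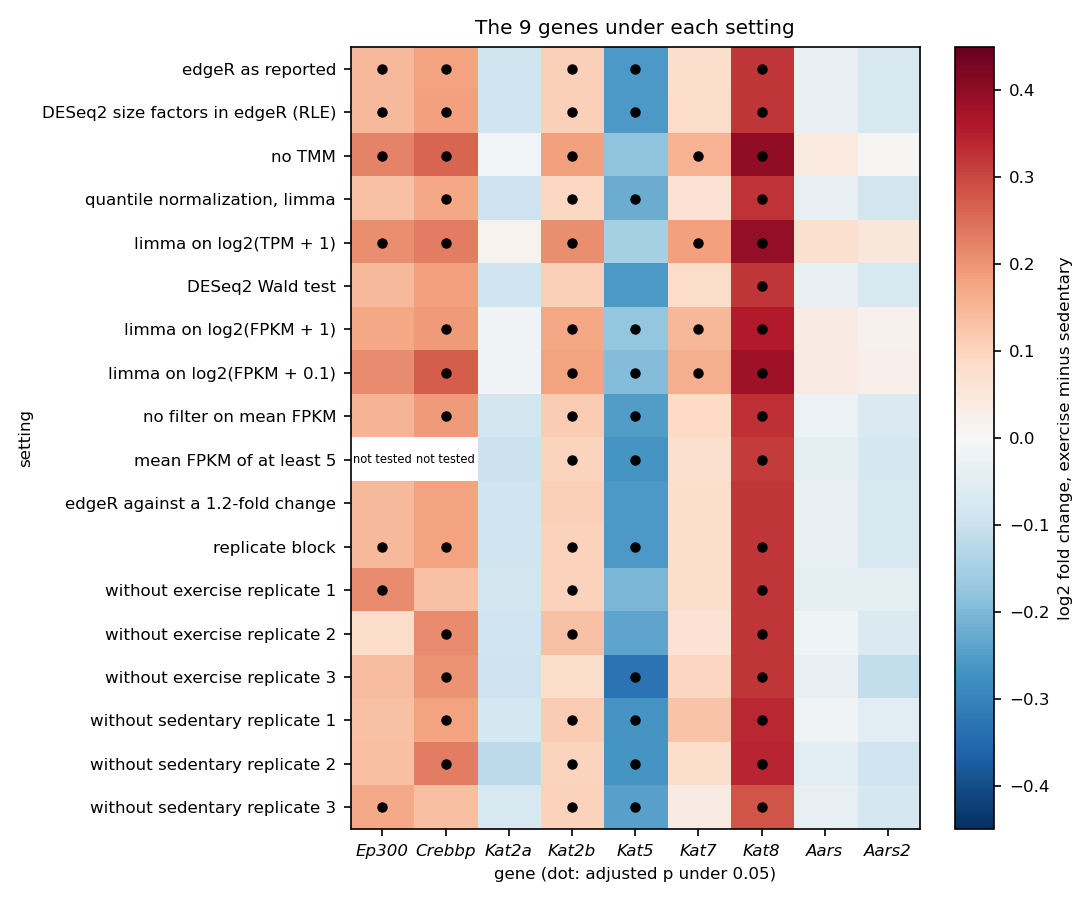
Log2 fold change, exercise minus sedentary, of each gene (columns) under each setting (rows), in red where higher and in blue where lower in exercise, with a dot where the adjusted p is under 0.05. Kat8 has a dot in every row but that of the test against a 1.2-fold change, and Aars, Aars2 and Kat2a have none.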

How the data were processed

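Per the labels' protocols, liver RNA of 6 mice was sequenced as paired reads (DNBseq), and poor, undetermined and short reads were dropped. Cutadapt, featureCounts and MultiQC, with build GRCm38.p6, are named in the submitters' processing notes. Aligner, tool versions, annotation and strand setting were not given in the sources used here. The deposited table gives for each gene and library a read count, an FPKM and a TPM, per the file headers. The deposited estimated counts were not whole for 1165 genes, none of them a member, and were rounded. The FPKM and TPM values were used as the authors gave them, and 6 columns of group averages were not used. Columns were matched to samples by the labels' descriptions and groups by the treatment label.

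Exercise was compared with sedentary by edgeR 4.0.16 in R 4.3.3 (TMM, quasi-likelihood F test, two-sided, no covariates, Benjamini-Hochberg over the 10266 genes whose FPKM averaged 1 or more, threshold 0.05). Fold changes are exercise over sedentary, on the log2 scale with a prior count of 0.125, the standard error is the log2 fold change over the square root of F, and 95% intervals are 1.96 standard errors. TMM factors were 1.03 in exercise and 0.972 to 0.977 in sedentary libraries. DESeq2 1.42.0 and limma 3.58.1 served as alternatives. Implied length is the count per FPKM and per total count. Each list's genes are named as up to 4 with the smallest p among those called. Yeats4 and the genes whose exons overlap a member fall outside this rule and were named after their values were seen. The members and lists were chosen with earlier results of these data known. Replicate numbers in the labels carry no stated pairing. Promoter windows matched all 9 members by gene ID. Coordinates of the windows and of the genes are RefSeq's, while exon overlaps are those of GENCODE vM21. Both are on GRCm38.p6 and counted from 1.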

Additional observations from a re-analysis of the deposited data

How the results depend on the processing

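Of the 593 values recomputed, 433 kept their direction and side of the threshold or stayed within 1.5 times. Counts over all genes, the members and the lists together that moved by more than 1.5 times, values that changed sign and ranges over left-out libraries are listed here, and the cause was not tested except that the stricter filter leaves out Ep300 and Crebbp. Without TMM, 3537 genes rose and 1203 fell, no member fell (0), and 57 list genes rose and 8 fell. On log2(TPM + 1) with limma, 3716 genes rose and 915 fell, no member fell (0), and 64 list genes rose and 6 fell. DESeq2 called 1272 genes higher and 1240 lower, 1 member higher and 0 lower, and 8 list genes lower. With limma on log2(FPKM + 1), 1099 genes fell, and 52 list genes rose and 8 fell. At a pseudocount of 0.1, 1096 genes fell, and again 52 list genes rose and 8 fell. At a mean FPKM of at least 5, 2 members rose. Against a 1.2-fold change, edgeR called 239 genes higher and 414 lower, 0 members in either direction (5 had an unadjusted p under 0.05 in the test against no change), and 2 list genes higher and 1 lower. Leaving out 1 library at a time gave 2 to 3 members higher and 0 to 1 lower. For members it was 0 lower without exercise replicate 1 or 2, and 2 higher without exercise replicate 3. The same fits gave 31 to 35 list genes higher and 13 to 15 lower, and 1712 to 1761 genes higher and 1688 to 1753 lower.

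Signs changed only for members that did not pass. Aars was at 0.044 without TMM, 0.072 by limma on log2(TPM + 1), and 0.037 and 0.038 by limma on log2(FPKM + 1) and log2(FPKM + 0.1). Aars2 was at 0.0049, 0.052, 0.020 and 0.023 under the same settings, and Kat2a at 0.017 by limma on log2(TPM + 1). The replicate block gave 1929 genes higher and 1917 lower, with 4 members higher and 1 lower. Deviations of same-numbered libraries from their group means correlated at −0.0306, −0.0159 and −0.025, so the numbers were not taken to pair the mice. Kat5 had the fewest reads, 176 to 221, and the widest standard error.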
